A study of Mus musculus with 2 samples.

Results

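The subject here is the forkhead family of transcription factors, taken as every probe set of the array whose only platform gene symbol is Fox, then 1 letter and a number. The rule found 83 of 45037 probe sets (controls left out), which carry 38 of the 18193 gene symbols with a probe set: 37 genes of forkhead proteins and Foxl2os, an RNA transcribed on the strand opposite Foxl2. RNA came from 2 cultures of mouse embryonic fibroblasts (MEFs), the mesenchymal cells that grow from minced embryos. One culture was homozygous for the Phc2 L307R allele and the other was wild type. Both were C57BL/6, derived at embryonic day 12.5 and used at passage 1 in serum-containing medium on gelatin, and no treatment is named for either. The labels do not give how many embryos went into a culture. Phc2 belongs to PRC1, one of the Polycomb complexes that keep developmental genes silent, and the changed residue lies in the SAM domain, which joins Phc2 molecules into polymers. The question is whether genes kept silent by Polycomb differ between these genotypes. Each genotype had 1 array, so differences have neither a replicate error nor a test: each one below is between 2 cultures, and the number of arrays limits its precision.

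Forkhead proteins share a winged-helix domain that binds DNA, and members of the family direct embryonic patterning, metabolism, the cell cycle and the opening of chromatin. Many of the genes that pattern embryonic tissues are Polycomb targets in cells that do not use them, and several stand in small clusters on a chromosome. In mesenchyme, FoxC, FoxD and FoxF factors mark regions of the embryo, while FoxO and FoxK factors are made in many cell types.

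Signals are MAS5 values on a linear scale, and a ratio is the log2 of Phc2 L307R over wild type. The arrays had close median signals, 94.3 for Phc2 L307R and 94.8 for wild type, and the higher of them was taken as a floor. The brightest probe set of a gene (by mean log2 signal) stands for it, and the gene counts as measured when this probe set exceeded the floor in either culture; lower signals were raised to the floor for the ratio, so a ratio against such a signal is a bound. A gene below the floor on both arrays is called silent, which says only that its signal was low. Brightness differs between probe sets of unlike sequence, so signals are compared between arrays and not between genes. The one error at hand is technical, namely how far measured probe sets of the same gene disagree in their log2 ratio: the SD was 0.32 over 5460 genes, and 0.28 over the Fox genes. Fibroblast markers had signal on both arrays (15 of 15 measured) and were not level between them. In Phc2 L307R 12 were higher and 3 lower, where 59.1% of all measured genes were higher. Their median ratio was 0.40, with Lum at 1.03, Dcn at 0.88, Col3a1 at 0.56 and Col5a1 at 0.51. Hepatocyte and endoderm markers (0 of 7) and ciliated cell markers (0 of 6) had no signal above the floor, but other foreign lists had some. Of 13 macrophage markers 5 were measured, 4 of them higher, led by Laptm5 at 1.00, Csf1r and Lyz2 at 0.57 and Adgre1 at 0.55, while Ptprc, named after its value was seen, was below the floor on both arrays. Of 13 neural markers 8 were measured, 4 higher and 4 lower, among them Map2 at -1.31, Stmn2 at 1.01, Dcx at 0.82 or more and Nes at 0.60. Of 11 skeletal muscle markers 7 were measured, 5 higher and 2 lower, among them Acta1 at 0.51, Des at 0.35, Myod1 at 0.29 and Myh3 at -0.22. Of 11 epithelial markers 4 were measured, namely Krt18 at -0.48, Krt5 at -0.31, Krt19 at 0.29 and Krt8 at 0.06. Of 7 adipocyte and preadipocyte markers 4 were measured, namely Cebpa at 0.42, Dlk1 at 0.39, Fabp4 at -0.27 and Lpl at 0.07. The part of these cell types in the ratios of the Fox genes was not tested. Phc2 had a log2 ratio of 0.36 at one probe set and -0.02 at the other.

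The forkhead genes split into 22 measured and 16 silent symbols, and no measured member differed 2-fold between the genotypes once signals below the floor were raised to it. This call rests on the floor for 1 gene: Foxa1, at 123.1 in Phc2 L307R and 32.3 in wild type, has a ratio of 0.38 or more, which is 1.10 with the floor at the 40th percentile of signals and 1.93 with no floor. The measured share was 57.9%, beside 62.7% of all genes with a probe set. Of the 22, 0 were at least 2-fold higher and 0 at least 2-fold lower, where 0.579% and 0.535% of all 11408 measured genes were, so the count is close to the background. With ratios centred on the median of measured genes, 47 genes of the array were 2-fold higher and 75 lower, in place of 66 and 61, and again no Fox gene. With Foxa1 at its bound, the ratios ran from -0.74 for Foxn2 to 0.58 for Foxp4, with a median of 0.24, beside 0.06 over all measured genes. The SD of the ratio was 0.30 over the measured Fox genes and 0.33 over all measured genes. The ratio exceeded the technical SD in either direction for 8 of the 22 genes, 36.4%, beside 27.7% of all measured genes. These 8 were Foxa1, Foxf1, Foxj2, Foxo3, Foxp4 and Foxs1, which were higher in Phc2 L307R, and Foxm1 and Foxn2, which were lower.

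**Figure D1:**
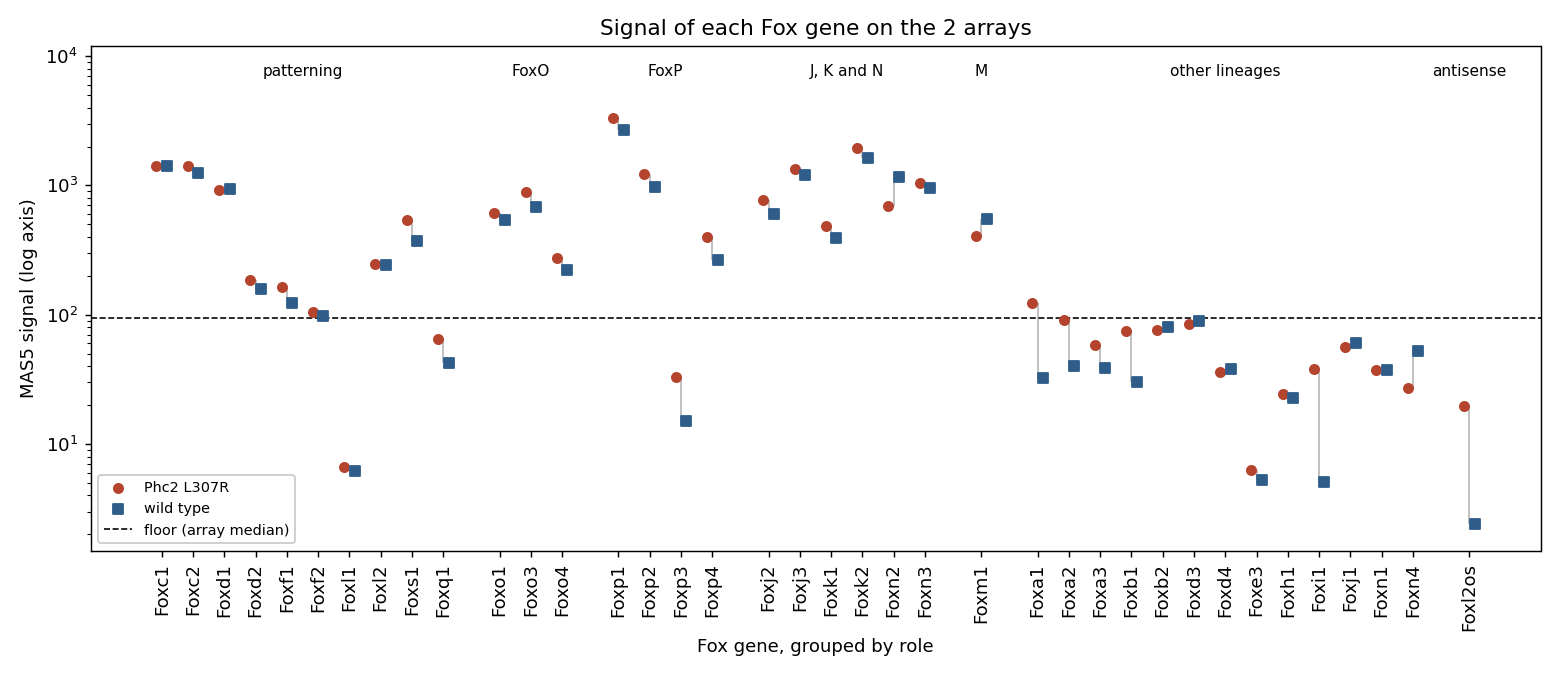
MAS5 signal (log axis) of the representing probe set of each of the 38 Fox symbols, with Phc2 L307R as circles left of wild type as squares, and the floor of 94.8 as a dashed line. Of the 22 measured genes 21 have both points above the line, and the points of Foxa1 lie on either side of it.

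Among the factors that pattern mesenchyme and organs, 8 of 10 were measured, with a median ratio of 0.14 and a range from -0.04 to 0.55. Foxc1 and Foxc2, which are needed for the skeleton, the eye and blood vessels, had near-equal signals on both arrays. Foxc1 read 1426 in Phc2 L307R and 1407 in wild type, a ratio of 0.02, and 635 against 703 at its other probe set, a ratio of -0.15. Foxc2 was at 1402 in Phc2 L307R and at 1252 in wild type, a ratio of 0.16. Of 13 endothelial markers, 6 were measured, 4 higher and 2 lower, from Tek at 0.44 or more and Flt1 at 0.42 to Eng at -0.11 and Emcn at -1.15. Foxd1, a factor of the kidney stroma, was as close, at 917 in Phc2 L307R and 941 in wild type, a ratio of -0.04. Foxd2, made in mesenchyme of the face and kidney, gave a signal of 187 in Phc2 L307R against 158 in wild type, a ratio of 0.24. Foxl2, known as the factor of ovarian granulosa cells and of the eyelid, was measured in these fibroblasts at 246 in Phc2 L307R and 244 in wild type, a ratio of 0.01. Of 5 granulosa and Sertoli cell markers, itself included, the other measured ones were Inha at 0.17 and Fshr at 0.12 or more. Of the 5 Fox genes Foxc1, Foxc2, Foxd1, Foxd2 and Foxl2, only Foxd2 differed by more than Foxc2, and all 5 lay within the technical SD. The sign of Foxc1 turned under loess, centring and the mean over probe sets, and that of Foxl2 under quantile normalization, loess and centring.

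Foxs1, a forkhead gene of perivascular cells and of neural crest derivatives, had the highest ratio of the patterning factors. Its signal was 545 in Phc2 L307R and 373 in wild type, 1.46-fold higher, a ratio of 0.55 from a single probe set. Markers of pericytes and smooth muscle had no common direction: 10 of 11 were measured, 6 higher and 4 lower, with Myh11 at 0.71, Tagln at 0.42, Rgs5 at -0.64 and Mcam at -0.45. The summed signal of this marker list was 64351 in Phc2 L307R and 51509 in wild type. Most of it came from Acta2 (33431 and 25586) and Tagln (22170 and 16573), so the sum says little of the other markers. Acta2 was named after its value was seen. Of 6 neural crest and Schwann cell markers, 5 were measured and higher, none 2-fold once signals below the floor were raised to it. Tfap2a was at 0.55 or more, Ngfr at 0.47, Sox10 at 0.26 and Erbb3 at 0.17. Tfap2a had 139.1 in Phc2 L307R and 63.5 in wild type, below the floor, so its difference may exceed 2-fold. The summed signal of this list was 1146 in Phc2 L307R and 871 in wild type, and the part of this list in the ratio of Foxs1 was not tested. Chondrocyte markers were higher on the Phc2 L307R array, in 12 of 13 measured of 14, with a median ratio of 0.75 and 5 of them at least 2-fold higher: Matn1 (1.62 or more), Col11a2 (1.31), Snorc (1.11), Hapln1 (1.04) and Comp (1.02). Comp was named after its value was seen. The summed signal of the chondrocyte list was 14534 in Phc2 L307R and 10285 in wild type, and its part in the ratios of the patterning factors was not tested. In whole cultures, a different number of cells of a type and a different amount of RNA per cell cannot be told apart.

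Foxf1 and Foxf2, factors of gut and lung mesenchyme that respond to Hedgehog signals, lay near the floor. Foxf1 read 164 in Phc2 L307R and 124 in wild type, 1.32-fold higher, a ratio of 0.40. Its other probe set was below the floor in Phc2 L307R, at 76.3, and just above it in wild type, at 104, a ratio of -0.14 or lower, so the direction of Foxf1 rests on which probe set is read. Foxf2 was at 106 in Phc2 L307R and at 97.7 in wild type, a ratio of 0.11, and is the measured member closest to the floor. Foxl1, a factor of the mesenchyme under the gut epithelium, was silent at 6.6 in Phc2 L307R and 6.2 in wild type. Foxq1, known from the hair shaft and stomach, was silent at 64.8 in Phc2 L307R and 42.1 in wild type.

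These genes stand in 2 clusters, and no measured gene in or beside them differed 2-fold. On chromosome 13, in the order Foxq1, Foxf2, Foxc1, the first was silent and the others had ratios of 0.11 and 0.02. Of the genes beside them, Exoc2 was at 0.19, Gmds at 0.14 and Dusp22 at -0.17, and Irf4 was silent. On chromosome 8, in the order Foxf1, Foxc2, Foxl1, the ratios of Foxf1 and Foxc2 were 0.40 and 0.16, with Foxl1 silent beside Foxc2. Mthfsd, an enzyme-domain gene that lies between Foxf1 and Foxc2, was at 0.30. Fendrr, a noncoding RNA transcribed next to Foxf1, was below the floor on both arrays, at 43.4 in Phc2 L307R and 24.5 in wild type, as was Irf8. Further out, Fbxo31 was at 0.28, Cox4i1 at 0.21, Emc8 at 0.01, Map1lc3b at -0.04 and Zcchc14 at -0.18. By these calls, silent and measured forkhead genes stood side by side in both clusters, on both arrays. The calls depend on the floor: Foxf2 lay close above it, at 105.7 in Phc2 L307R and 97.7 in wild type. Foxq1 lay below it, at 64.8 in Phc2 L307R and 42.1 in wild type. Since signals are not compared between genes, whether neighbouring genes differed in expression was not tested.

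The Hedgehog genes that act upstream of Foxf1, Foxf2 and Foxl1 in other tissues were higher as far as they were measured. The list has 13 genes on the array, of which 11 were measured; all 11 had a ratio above 0, with a median of 0.25, where 59.1% of all measured genes were higher. In centred ratios 9 of the 11 were above 0, with Cdon and Gli3 below it. Gas1, a co-receptor, was at 0.96, with a signal of 7668 in Phc2 L307R and 3948 in wild type. Hhip, a secreted antagonist and target of the pathway, was at 0.71, the co-receptor Boc at 0.49 and the ligand Shh at 0.42. None was 2-fold higher, and Gli1, the most used readout of the pathway, was silent at 75.2 in Phc2 L307R and 6.2 in wild type. Gli1 was named after its value was seen.

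The 3 FoxO genes were all measured and all had higher signals in Phc2 L307R, as did 59.1% of all measured genes. FoxO proteins drive genes of cell cycle arrest, stress defence and autophagy, and Akt keeps them out of the nucleus when insulin or growth factors are present. Foxo1 gave a signal of 611 in Phc2 L307R against 542 in wild type, a ratio of 0.17. Its other probe sets gave 0.28 and -0.16. Foxo3 read 884 in Phc2 L307R and 680 in wild type, a ratio of 0.38, and 688 against 684 at its other probe set, a ratio of 0.01. Foxo4 was at 276 in Phc2 L307R and at 220 in wild type, a ratio of 0.32, from 1 measured probe set. At the brightest probe set, the ratios of all 3 stayed above 0 under each scaling of the arrays that was tried. The other probe sets were not followed through these scalings. Transcript level is only one part of FoxO control, since the proteins are moved and degraded after phosphorylation.

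Known FoxO target genes were split in direction. Of 30 with a probe set, 26 were measured, with 15 higher, 57.7% beside 59.1% of all measured genes, and 11 lower. The median ratio was 0.03, beside 0.06 over all measured genes. In centred ratios 11 were higher and 15 lower. The cell cycle inhibitor Cdkn1a was at 0.67, with a signal of 13730 in Phc2 L307R and 8641 in wild type, and it is also a p53 target. Txnip, which restrains glucose uptake, was at 0.55 and Klf2, a zinc finger factor, at 0.53. Catalase (Cat), which breaks down hydrogen peroxide, was lower at -0.60, with 1270 in Phc2 L307R and 1929 in wild type. The liver targets Pck1, G6pc and Igfbp1 and the death ligand Fasl were silent; these 4 were named after their values were seen. Genes of the PI3K-Akt pathway that control FoxO had a median of 0.12 over 18 measured members. Of these, 11 were higher, 61.1% beside 59.1% of all measured genes, and 7 lower. Their median was -0.03 when the probe sets of a gene were averaged. The PI3K subunit Pik3r2 was at 0.50 and the deacetylase Sirt1, which acts on FoxO proteins, at -0.45, while the 14-3-3 proteins that hold FoxO in the cytoplasm went both ways, with Ywhae at 0.43 and Ywhag at -0.41.

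The FoxP genes are repressors that act as dimers in lung, brain and immune cells. Foxp4 had the highest ratio of the forkhead genes above the floor on both arrays, with a signal of 397 in Phc2 L307R and 265 in wild type, a ratio of 0.58. A second probe set gave 0.75, with 223 in Phc2 L307R and 132 in wild type, and the other measured one gave -0.23, with 120 in Phc2 L307R and 141 in wild type. The direction of Foxp4 was therefore carried by 2 of 3 probe sets. Foxp1 gave a signal of 3312 in Phc2 L307R against 2675 in wild type, a ratio of 0.31, and its 8 measured probe sets ranged from -0.21 to 0.46. Foxp2, studied for its part in speech and motor circuits, read 1224 in Phc2 L307R and 981 in wild type, a ratio of 0.32, and its 5 measured probe sets ranged from -0.13 to 0.32. Foxp3, the factor of regulatory T cells, was silent at 32.8 in Phc2 L307R and 15.1 in wild type. Of 8 T cell markers, 6 were below the floor on both arrays (Cd3e, Cd3d, Cd4, Il2ra, Ctla4 and Cd28, named after their values were seen), while Cd8a was at 0.78, with 184.8 in Phc2 L307R and 107.6 in wild type, and Cd3g at -0.40, with 120.5 in Phc2 L307R and 158.5 in wild type.

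FoxK proteins bring the deubiquitinase Bap1 to DNA, and that complex, PR-DUB, removes the histone H2A mark that PRC1 lays down. Foxk1 was at 488 in Phc2 L307R and at 394 in wild type, a ratio of 0.31. Foxk2 gave a signal of 1934 in Phc2 L307R against 1638 in wild type, a ratio of 0.24, but its 3 other measured probe sets gave -0.17, -0.18 and -0.28, so its sign turned to -0.09 in the mean over probe sets. The other PR-DUB genes differed little: 8 of 8 were measured, 6 higher and 2 lower (5 and 3 in centred ratios). The share higher was 75%, beside 59.1% of all measured genes. Their median was 0.16, with a range from -0.23 to 0.29. Ogt was at 0.29, Asxl2 at 0.24, Hcfc1 at 0.18 and Kdm1b at -0.23, and Bap1 itself, named after its value was seen, at -0.01.

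Foxn2, a little-studied factor made in many tissues, had the lowest ratio of the family. Its signal was 698 in Phc2 L307R and 1167 in wild type, 1.67-fold lower, a ratio of -0.74 from 1 measured probe set. Its ratio lay between -0.80 and -0.67 in all alternatives tried. It was the single Fox gene past 1.5-fold lower, and none was past 1.5-fold higher with Foxa1 at its bound, where 4.19% of all measured genes were at least 1.5-fold higher and 3.25% at least 1.5-fold lower. Its relative Foxn3, known as a checkpoint suppressor, read 1039 in Phc2 L307R and 962 in wild type, a ratio of 0.11, with 3 other probe sets at -0.13, -0.31 and -0.36. Foxj2 was at 766 in Phc2 L307R and at 605 in wild type, a ratio of 0.34. Foxj3, like Foxj2 an activator found in many tissues, gave a signal of 1349 in Phc2 L307R against 1214 in wild type, a ratio of 0.15, while another probe set was at 234 in Phc2 L307R and 388 in wild type, a ratio of -0.73. The 2 probe sets of Foxj3 thus lay 0.88 apart on the log2 scale. Foxj3 lies on chromosome 4, which also carries Phc2, 57 measured genes from it, and Foxd2 lies 114 measured genes from it on the same side. Within 100 measured genes of Phc2 on each side, the median ratio was 0.08, 7 of 200 genes were at least 2-fold higher and 3 at least 2-fold lower, beside 0.579% and 0.535% of all measured genes.

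Foxm1, the factor that switches on mitotic genes in dividing cells, was lower in Phc2 L307R at each of its 3 measured probe sets. The first read 408 in Phc2 L307R and 548 in wild type, 1.34-fold lower, a ratio of -0.43. The others gave -0.39 and -0.41, so they lay closer together than the technical SD. The genes Foxm1 is known to activate were lower with it: of 19 measured, 17 were lower and 2 higher (19 lower in centred ratios). The share higher was 10.5%, beside 59.1% of all measured genes. Their median was -0.20, beside 0.06 over all measured genes. Birc5 (survivin) was at -0.54, with 2869 in Phc2 L307R and 4173 in wild type, Cdc20, an activator of the anaphase-promoting complex, at -0.50, the phosphatase Cdc25c at -0.44 and the centromere protein Cenpf at -0.42. Most of these are general genes of the G2 and M phases, whose lower level in this culture was known when the list was written. None of the 19 was 2-fold lower.

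**Figure D2:**
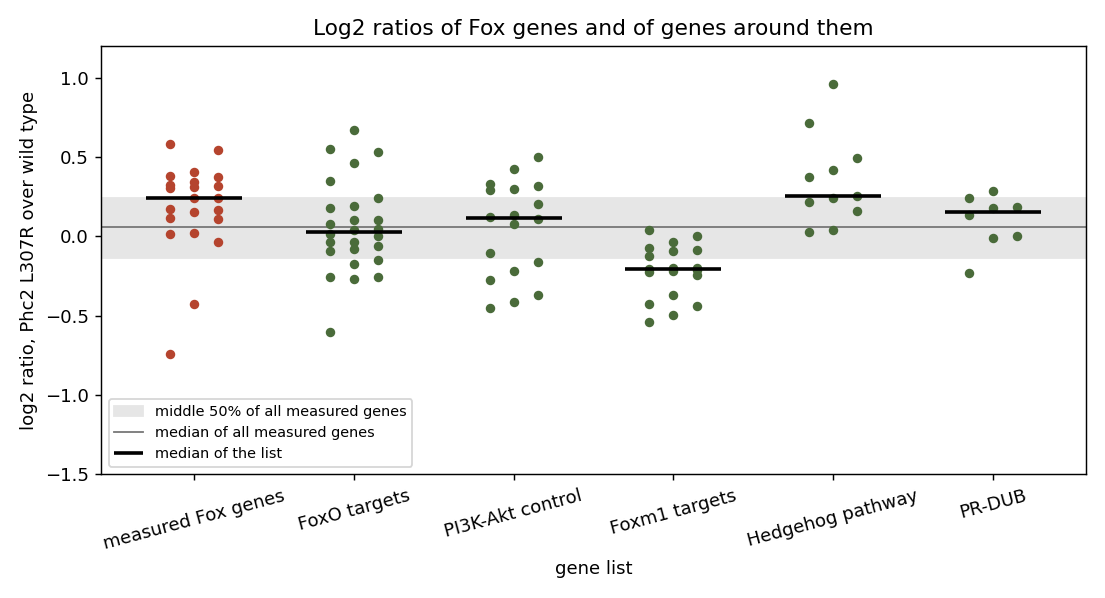
Log2 ratio of Phc2 L307R over wild type for each measured gene of the Fox family and of 5 lists around it, with each list's median as a bar, the median of all measured genes (0.06) as a line and their interquartile range as a grey band. The 19 Foxm1 targets lie mostly below the line, the 11 Hedgehog genes lie above 0 (9 do in centred ratios), and the 26 FoxO targets spread on both sides.

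How far the family as a whole leaned to higher signals in Phc2 L307R depended on which probe set stood for a gene. With the brightest probe set, 19 of 22 measured Fox genes had a higher signal in Phc2 L307R, 86.4% beside 59.1% of all measured genes. Over single probe sets, 30 of 49 measured ones were higher and 19 lower, 61.2% beside 54.3% of all measured probe sets with 1 symbol, and their median ratio was 0.11. When a gene's measured probe sets were averaged, 15 of 22 genes were higher, 68.2% beside 56.4% of all genes. The brightest probe set was the higher one in 10 of the 11 Fox genes with at least 2 measured probe sets, against the mean of the others, beside 55.5% of 5460 such genes. In those 11 genes, the brightest probe set was above 0 in 10, and the mean of the others in 5, a comparison chosen after the data were seen. Probe sets differed in direction in 9 of the 11 genes. Those of Foxm1 were all lower, and those of Foxo3 were all higher, though at 0.38 and only 0.01. The 11 genes with 1 measured probe set were higher in 9, with a median of 0.24, and have no such check.

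**Figure D3:**
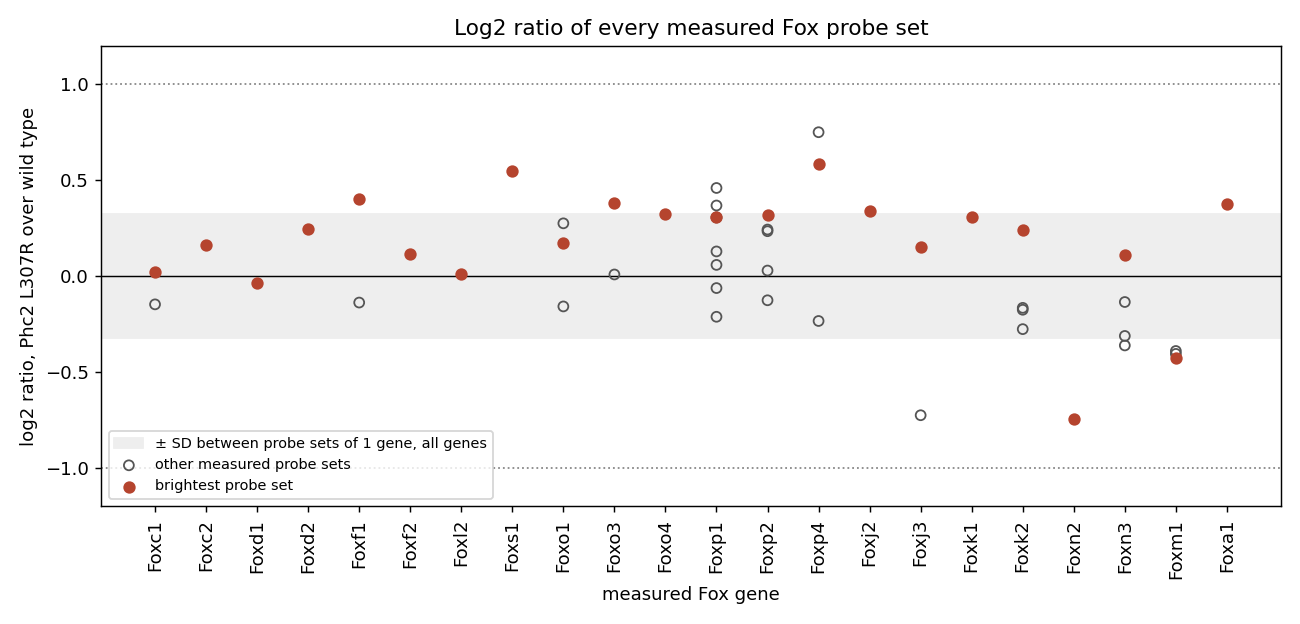
Log2 ratio of Phc2 L307R over wild type for each of the 49 measured Fox probe sets, the brightest of each gene filled and the others open, with the technical SD of 0.32 as a grey band and 2-fold as dotted lines. No point reaches a dotted line, Foxa1 being drawn at its bound, and in 10 of 11 genes with open points the filled point lies above their mean.

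Of the 16 silent symbols 15 encode forkhead proteins. Of the 17 symbols below the floor in wild type, 1, Foxa1, was above it in Phc2 L307R, a share of 5.88% beside 5.74% of the 7198 such genes in all. Foxa1, a pioneer factor of liver, lung and breast epithelium, was at 123 in Phc2 L307R and at 32.3 in wild type, at least 1.30-fold higher against the floor. Its relatives Foxa2 and Foxa3 stayed below the floor: Foxa2 had 91.7 in Phc2 L307R and 39.8 in wild type, just under it, and Foxa3 had 58.5 in Phc2 L307R and 38.4 in wild type. Of 12 liver and endoderm genes that FoxA factors drive, 11 were silent on both arrays and Sftpb was at -0.31. No Fox gene above the floor in wild type was below it in Phc2 L307R.

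Signals of the silent symbols lay between 6.3 and 91.7 in Phc2 L307R and between 2.4 and 89.1 in wild type, with medians of 37.6 in Phc2 L307R and 37.5 in wild type. Closest to the floor besides Foxa2 were Foxd3, a factor of neural crest and pluripotent cells, at 85.2 in Phc2 L307R and 89.1 in wild type, and Foxb2, a neural factor, at 75.8 in Phc2 L307R and 81 in wild type. Foxb1, of the diencephalon and spinal cord, had 75.5 in Phc2 L307R and 30 in wild type. Foxj1, which drives motile cilia, had 56.5 in Phc2 L307R and 60 in wild type, and 16 of 19 of its axoneme targets were silent as well. Rsph9 (0.83), Rfx3 (-0.58 or lower) and Tekt2 (-0.40 or lower) were the measured ones. Foxi1, of the inner ear and kidney, had 37.9 in Phc2 L307R and 5.1 in wild type, and Foxn4, of the retina, 26.9 in Phc2 L307R and 52.2 in wild type. The rest were Foxd4, Foxe3 of the lens, Foxh1, the partner of Smad proteins in Nodal signalling, Foxl1, Foxn1 of the thymus epithelium, Foxp3, Foxq1 and Foxl2os. Before the floor was applied, 11 of the 16 were nominally higher in Phc2 L307R, 68.8% beside 49.6% of all silent genes, but signals at this level have no order that the arrays could bear out.

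Measured and silent Fox genes differed in the CpG content of their promoters, as measured and silent genes did over the whole array. High CpG content is a feature of sites that Polycomb complexes occupy in mammals. RefSeq promoters of build GRCm38.p6, 250 bases before to 50 after the first listed start site, were found for 25 of the 38 symbols. None was found for the silent Foxb1, Foxh1, Foxj1, Foxl1 and Foxq1, nor for measured genes such as Foxc2, Foxf1, Foxm1 and Foxs1. The comparison leaves these genes out. The 14 promoters of measured genes held a median of 29 CpG dinucleotides in 300 bases, and the 11 of silent genes 12. For comparison, the medians were 21 over 9264 promoters of all measured genes and 6 over 5188 promoters of all silent genes. With a G plus C content of at least 50% and a ratio of observed over expected CpG of at least 0.6, a common description of CpG islands, 12 of the 14 measured and 4 of the 11 silent Fox promoters were island-like. These are 85.7% and 36.4%, beside 71% of all measured and 24% of all silent genes. The 4 silent ones were Foxa3, Foxd3, Foxn4 and Foxl2os, and the window of Foxl2os overlaps that of Foxl2. The measured genes without island-like windows were Foxn3 and Foxp1, and the first of 3 promoters listed for Foxp1 was used. Of the silent genes without island-like windows, Foxa2 had 3 promoters listed and Foxp3 had 2, and again the first was used. Both groups spanned a wide range, from 6 to 59 CpG in measured and from 6 to 28 in silent genes. The forkhead core motif TGTTTAC, searched on both strands, was found in 1 of the 25 windows, that of Foxa1, 4% beside 2.82% of promoters of all genes on the array. It is present there as GTAAACA, at bases 110 to 116 of the window. A match describes letters and no binding.

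The promoters of 3 genes are printed to show the range, 5′ to 3′ on the strand of the gene, with CpG dinucleotides in capitals. Foxc1 (chr13:31806396-31806695, plus strand, 32 CpG) stands for the measured genes with near-equal signals, Foxa1 (chr12:57546062-57546361, minus strand, 26 CpG) is the gene that crossed the floor, and Foxi1 (chr11:34208040-34208339, minus strand, 6 CpG) is a silent gene.
Foxc1: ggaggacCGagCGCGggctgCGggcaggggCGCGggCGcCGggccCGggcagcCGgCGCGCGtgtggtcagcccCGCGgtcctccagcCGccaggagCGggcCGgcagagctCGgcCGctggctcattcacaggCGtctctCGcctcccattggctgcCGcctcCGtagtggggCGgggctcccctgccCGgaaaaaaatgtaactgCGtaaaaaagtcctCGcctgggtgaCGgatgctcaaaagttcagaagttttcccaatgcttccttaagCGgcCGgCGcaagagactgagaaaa
Foxa1: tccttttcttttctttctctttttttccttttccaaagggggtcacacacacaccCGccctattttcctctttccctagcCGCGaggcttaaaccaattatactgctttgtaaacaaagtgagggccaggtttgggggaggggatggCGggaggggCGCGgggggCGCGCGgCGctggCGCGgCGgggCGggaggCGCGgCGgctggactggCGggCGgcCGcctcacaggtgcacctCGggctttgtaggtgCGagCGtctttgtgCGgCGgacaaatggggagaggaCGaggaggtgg
Foxi1: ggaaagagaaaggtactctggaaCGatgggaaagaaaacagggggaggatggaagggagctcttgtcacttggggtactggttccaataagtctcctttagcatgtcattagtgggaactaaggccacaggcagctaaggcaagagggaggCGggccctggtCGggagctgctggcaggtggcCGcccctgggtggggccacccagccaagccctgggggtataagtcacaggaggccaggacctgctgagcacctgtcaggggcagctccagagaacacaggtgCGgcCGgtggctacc

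**Figure D4:**
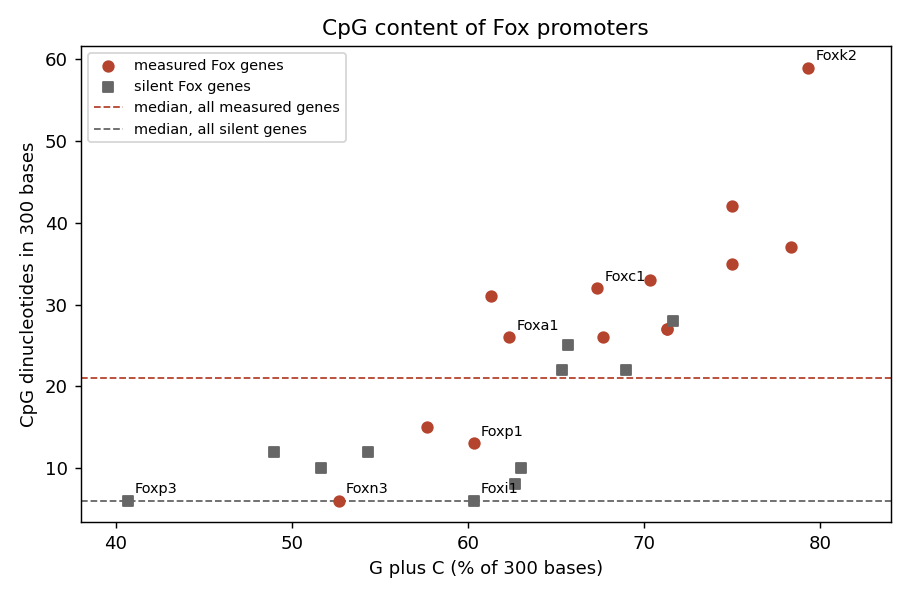
CpG dinucleotides against G plus C content in 300 bases around the start site, for 14 measured (circles) and 11 silent (squares) Fox genes, with the medians of all measured genes (21) and all silent genes (6) as dashed lines. All but 3 circles lie above the upper line and 7 of the 11 squares below it; the points of Foxf2 and Foxl2 coincide.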

How the data were processed

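Intensity values, on a linear scale, were deposited for 45101 probe sets and 2 arrays. They were made with MAS5 and Affymetrix Expression Console, per the submitters' processing notes, which give no versions; how the arrays were scaled is not stated there. The deposited intensity values have a mean of 500.0 on each array with 2% trimmed at each end, and were used as they are. The 64 control probe sets were left out. Of the rest, 34945 carried 1 gene symbol, 932 several and 9160 none; 2 probe sets that name a Fox gene beside others were not used. Symbols were updated through a RefSeq table of GRCm38.p6, used for names and gene order. Ratios were computed with Python 3.11.15, numpy 2.4.6, pandas 2.3.3 and statsmodels 0.14.6, and the steps were tested on simulated data. Differences were planted there only in genes well above the floor, alike at all probe sets of a gene. That test therefore covers neither signals near the floor nor probe sets that disagree. Since the labels give 1 array per genotype, no p-value was computed and genes were counted at 2-fold. The text names every Fox gene and, of the other lists, at most 4 measured genes each by the size of their ratio, beside members said to be named after their values were seen, and all cluster neighbours. The Fox genes, the lists and these rules were chosen with earlier results of these data known; roles were assigned from general knowledge, after the values were seen. Alternatives changed the scale between arrays, the floor, the probe set of a gene, the fold threshold and the neighbours of Phc2.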

Additional observations from a re-analysis of the deposited data

How the results depend on the processing

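The absence of 2-fold differences held under all alternatives but those on low signals. With the floor at the 40th percentile or with no floor, 1 Fox gene was at least 2-fold higher, Foxa1, at a log2 ratio of 1.10 and 1.93; with the floor as a pseudocount it was at 0.78. At 1.5-fold, 1 gene was lower, Foxn2. The number of measured Fox genes ranged from 19 with the floor at the 60th percentile to 29 with it at the 40th. The number higher in Phc2 L307R was lowest, 14 of 22, without the brightest probe set of genes with several, an alternative chosen after the data were seen. It was highest, 23 of 29, with the floor at the 40th percentile, where more genes were measured. The median ratio of the family ranged from 0.08 under that alternative to 0.26 without _x_at and _s_at probe sets, which can bind several transcripts. The mean over probe sets put Foxj3 at -0.29 and Foxk2 at -0.09, and the median of the PI3K-Akt genes at -0.03. The median of FoxO targets was below 0 in centred ratios (-0.03), under loess and without _x_at and _s_at probe sets. Of the lists, that of axoneme genes, with 3 measured members, was the only one whose median moved by more than the technical SD. It moved to 0.13 without the neighbours of Phc2. With the floor at the 60th percentile, neither this list nor that of liver and endoderm genes had a measured member. The median of all measured genes was between 0.03 and 0.07 before centring under every setting. No paired analysis was possible because there is 1 array per genotype.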
